A study of Bos taurus with 11 samples.

Results

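Parenchyma and far stroma of the bovine mammary gland were compared within 4 untreated Holstein heifers aged 10 to 12 months. Parenchyma is the tissue with the branching ducts, and far stroma is a stromal sample of the same gland which the labels name apart from a close stroma without stating distances. The groups were the parenchyma of heifers 1, 3, 4 and 5 (n = 4) and the far stroma of the same 4 heifers (n = 4), so that 8 of the 11 samples of the series entered, and each parenchyma sample had a partner from the same animal. The labels name no agent and no genetic change, and each sample was a piece of bulk tissue. The members were all genes with a mean of 10 or more normalised counts in either region, which were 14546 of 16279 genes in the table.

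In a growing heifer the gland consists of ducts that extend into a fat pad. Ductal epithelium has an apical face towards the lumen and a basal face towards the stroma, and takes up glucose, amino acids and ions that later serve milk synthesis. Fat cells of the pad take up glucose under insulin, make and store triglyceride and release fatty acids, with cyclic AMP and its phosphodiesterases setting the rate of release. Cattle make fatty acids mainly from acetate rather than from glucose, and adipose tissue is their main site of this synthesis outside lactation.

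The labelled regions were checked against defining markers of 9 cell types. All 10 epithelial markers were higher in parenchyma and together held 0.382% ± 0.0107 of the reads in parenchyma and 0.0028% ± 7.47e-04 in far stroma. TP63, a factor of basal epithelial cells, was at 0 reads in all 4 far stroma samples, and KRT14 was at 0 in 2 of them. All 8 adipocyte markers were lower in parenchyma, where they held 0.0367% ± 0.00428 of the reads against 2.22% ± 0.29 in far stroma, and none of them was at 0. All 6 T and B cell markers were higher in parenchyma (0.0517% ± 0.00842 against 0.00289% ± 0.00166), all 5 endothelial markers were lower (0.0689% ± 0.00632 against 0.23% ± 0.0327), and so were 5 of 6 fibroblast markers (0.88% ± 0.362 against 2.19% ± 0.702, with overlap between the groups). Macrophage markers were lower for 3 of 5 and Schwann cell markers for 3 of 3, while smooth muscle markers were higher for 2 of 4. The macrophage count was 2 without heifer 1 or 4 and 4 without heifer 5. The macrophage shares of reads overlapped (0.0792% ± 0.0189 in parenchyma and 0.137% ± 0.0775 in far stroma). Of 2 skeletal muscle markers tested, TNNT3, a fast muscle troponin, was higher (log2 difference 1.60 ± 0.28, adjusted p = 9.29e-04), and the list held 9.94e-04% ± 2.45e-04 of the reads in parenchyma and 3.23e-04% ± 7.95e-05 in far stroma. In bulk tissue, a smaller number of cells of a type and less RNA per cell cannot be told apart, and the part of these cell types in the results that follow was not tested.

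The samples held 7274474 to 11156909 reads recovered from the normalised counts. The value of every gene was tested as log2(normalised count + 1) with limma, with the heifer as a block, and a gene was called at an adjusted p under 0.05 (Benjamini-Hochberg over all 14546 genes). A log2 difference is parenchyma minus far stroma throughout, is given with its standard error (SE), and understates the change of genes with low counts. Of the 14546 genes, 4028 were higher in parenchyma (27.7%) and 3589 lower (24.7%), so that 52.4% were called, and 2673 of the former and 2193 of the latter differed at least 2-fold. At 16-fold and more, 517 genes were higher and 193 lower. The values of parenchyma and far stroma did not overlap for 3227 of the higher and 2932 of the lower genes. The median log2 difference of all genes was 0.06, with which the median of each gene list below can be set side by side. Counts of higher and lower members below are likewise to be read beside the shares of 27.7% and 24.7% over all genes.

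The direction of small differences depended on the scaling. The authors' normalised counts summed to 8017379 to 8948767 in parenchyma and 10333417 to 11772789 in far stroma. When every sample was scaled to the same total instead (library-total scaling), the log2 differences moved up by 0.42 at the median and by 0.06 to 0.42 over single genes. With it 6550 genes were higher and 2174 lower, so that the share of calls that were higher went from 52.9% to 75.1%. Of the 48 gene lists, 27 held more lower than higher members as reported, and 18 of these turned to more higher members with library-total scaling, while 8 kept more lower members. All 20 lists with more higher than lower members kept that balance, as a scaling that raises every difference could hardly turn it. Counts under library-total scaling are therefore given beside each list whose balance they turn or whose counts they move by over 1.5 times. The 100 genes with most reads took 18.8 to 22.2% of the reads in parenchyma and 26.2 to 29.4% in far stroma.

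**Figure D1:**
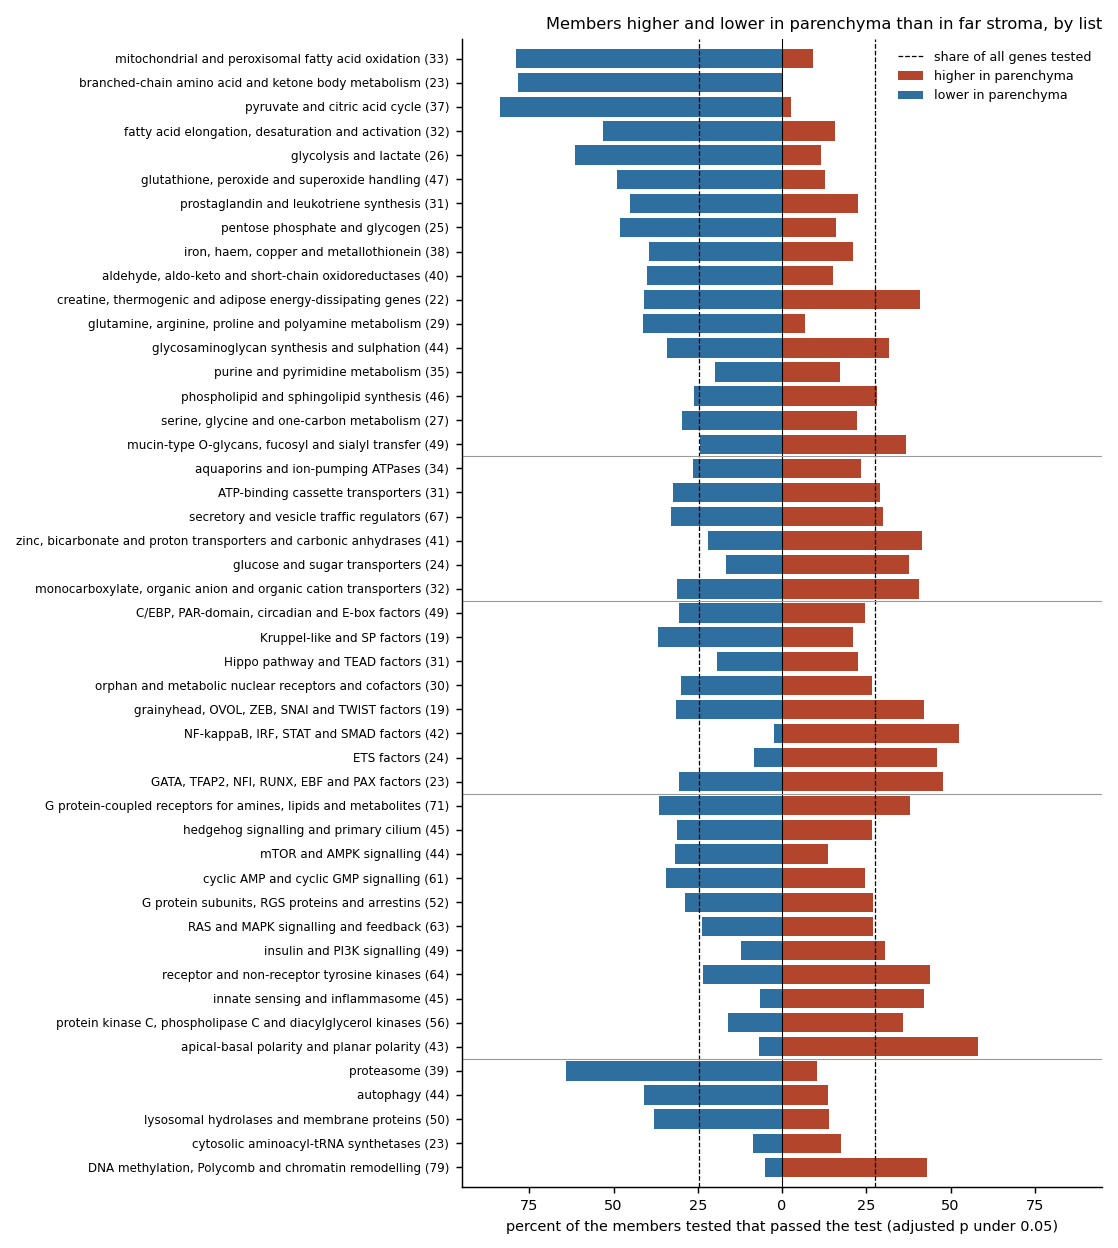
Percent of the tested members of each of 47 gene lists that were higher (right, red) or lower (left, blue) in parenchyma than in far stroma, with the number tested in brackets and the shares of all genes tested (27.7% and 24.7%) as dashed lines. Lists of fuel metabolism at the top reach far to the left (31 of 37 members of pyruvate and citric acid cycle), and lists of polarity, ETS and NF-kappaB factors reach to the right.

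The widest differences over all genes were examined under the same conditions, the 15 largest in each direction. Those higher in parenchyma included 3 keratins and COL17A1, a collagen that anchors basal cells, with 5824, 7180, 7490 and 11158 in parenchyma and 9.79, 8.4, 10.2 and 9.68 in far stroma (9.52 ± 0.20, adjusted p = 1.41e-09). Values are given in the order of heifers 1, 3, 4 and 5 throughout. SDR9C7, a short-chain dehydrogenase of epidermal lipids, had 513, 807, 943 and 1775 in parenchyma and 1.96, 1.2, 0 and 0 in far stroma, and 3 reads in far stroma gave a pooled ratio of 1097 (95% counting interval 375 to 5321). Among those lower in parenchyma was ADIG, a small protein of fat cells, with 8.29, 6.5, 11.6 and 6.41 in parenchyma and 2605, 2606, 3575 and 4571 in far stroma (-8.50 ± 0.23, adjusted p = 7.35e-09). PLIN4, which coats lipid droplets, had 60.3, 48, 39.2 and 71.4 in parenchyma and 22786, 17111, 6340 and 9180 in far stroma (-7.82 ± 0.26, adjusted p = 1.99e-08). GLYAT, which joins glycine to acyl-CoA and is known from liver and kidney, had 0.75, 4.07, 0.89 and 0 in parenchyma and 437, 585, 239 and 526 in far stroma (-7.71 ± 0.41, adjusted p = 3.24e-07). None of these values overlapped between the regions.

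Genes of glucose breakdown were mostly lower in parenchyma. Of 26 genes of glycolysis and lactate tested, 16 were lower and 3 higher, with 7 not passing (median log2 difference -0.79), and the list held 0.338% ± 0.0126 of the reads in parenchyma and 0.814% ± 0.102 in far stroma. Much of this difference in share came from ALDOA and LDHB. They had 132236 and 50077 reads over the 4 far stroma samples and 21231 and 8024 over the 4 parenchyma samples. For the list, library-total scaling gave 7 higher and 11 lower. ALDOA, the main aldolase of muscle and many other tissues, had 4761, 3972, 4000 and 5076 in parenchyma and 29249, 43193, 44051 and 44083 in far stroma, without overlap (-3.16 ± 0.22, adjusted p = 2.18e-06). Its paralogue ALDOC had 1738, 473, 464 and 273 in parenchyma and 129, 336, 182 and 93.5 in far stroma, where the far stroma of heifer 3 exceeded the parenchyma of heifer 5, and differed in the opposite direction (1.78 ± 0.41, adjusted p = 0.00488). LDHB, the lactate dehydrogenase chain of oxidative tissues, had 1788, 1585, 1678 and 1667 in parenchyma and 11368, 15970, 12622 and 22536 in far stroma. No value overlapped for LDHB (-3.17 ± 0.21, adjusted p = 1.37e-06), and LDHA differed by less (-0.77 ± 0.24, adjusted p = 0.0223), a call that was lost without heifer 4, without heifer 5 and with library-total scaling (adjusted p 0.0134 to 0.249 over all alternatives).

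Members of the same enzyme family differed in direction. Among hexokinases, HK2, which insulin induces in muscle and fat, was lower (-1.53 ± 0.29), HK3 was higher (1.34 ± 0.39, adjusted p = 0.0156, lost without heifer 1 or heifer 5), and HK1 had a log2 difference of 0.13 ± 0.16 (95% interval -0.22 to 0.48). HK1 was called higher with library-total scaling (adjusted p = 0.0102). The PFKFB enzymes make and break down fructose 2,6-bisphosphate, the activator of phosphofructokinase. PFKFB1 had 0 reads in all 4 parenchyma samples against 23.5, 64.8, 26 and 58.1 normalised counts in far stroma, at least 64.8-fold lower. Here and below, a bound sets 3 reads over the 4 samples of a region without reads, and a region with 1 to 3 reads is given by the ratio of pooled normalised counts, with an interval that covers counting error only. PFKFB3 (-1.75 ± 0.39) and PFKFB4 (-1.36 ± 0.28) were lower too, while PFKFB2 had a difference of 0.59 ± 0.23 that did not pass (adjusted p = 0.052). PFKFB2 passed with library-total scaling and without heifer 1 (adjusted p 0.00574 to 0.18 over all alternatives). Phosphofructokinase subunits PFKL (-0.94 ± 0.21) and PFKP (-1.01 ± 0.22) were lower, and the muscle subunit PFKM measured 178 ± 25.5 against 179 ± 39.4 (mean ± SD; log2 difference 0.01 ± 0.21).

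Genes of pyruvate metabolism and the citric acid cycle were lower in most cases. Of 37 genes of pyruvate metabolism and the citric acid cycle, 31 were lower, 1 was higher and 5 did not pass (median -1.02), and with library-total scaling 23 were still lower and 3 higher. Together they held 0.311% ± 0.0175 of the reads in parenchyma and 0.703% ± 0.0841 in far stroma, without overlap. PCK1, the cytosolic enzyme of glyceroneogenesis and gluconeogenesis, measured 15.8, 3.25, 11.6 and 11 in parenchyma and 3765, 2010, 1968 and 3911 in far stroma. Far stroma values stood far above parenchyma values in every heifer (-8.08 ± 0.26, adjusted p = 1.71e-08). PCK2, the mitochondrial form, measured 234, 154, 111 and 142 in parenchyma and 2319, 6348, 4453 and 6085 in far stroma (-4.85 ± 0.32, adjusted p = 1.29e-06). ME1, the cytosolic malic enzyme that supplies NADPH for fatty acid synthesis, had 64.8, 52.9, 57.9 and 72.3 in parenchyma and 1627, 1949, 1516 and 1542 in far stroma, the groups lying far apart (-4.72 ± 0.18, adjusted p = 5.14e-08). The mitochondrial malic enzymes ME3 (-3.59 ± 0.32) and ME2 (-0.78 ± 0.19) were lower as well, the latter without a call under library-total scaling.

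The single member of that list that was higher was IDH2, the mitochondrial NADP-dependent isocitrate dehydrogenase, with 516, 609, 528 and 613 in parenchyma and 247, 287, 367 and 319 in far stroma. All 4 parenchyma values lay above the far stroma values (0.90 ± 0.17, adjusted p = 0.00136), whereas its cytosolic counterpart IDH1 was lower (-1.36 ± 0.24). PDK4, a kinase that shuts pyruvate dehydrogenase during fat oxidation and fasting, had 1353, 1572, 1599 and 1776 in parenchyma and 10358, 10105, 16276 and 13077 in far stroma, which did not overlap (-2.96 ± 0.18, adjusted p = 7.19e-07). PDK2 (-1.04 ± 0.18) and PDK1 (-0.78 ± 0.21) were lower by less, and PDK3 did not pass (0.44 ± 0.19, adjusted p = 0.0806). The call of PDK1 was lost without heifer 3 and with library-total scaling, and PDK3 passed with the latter.

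In the list of the pentose phosphate pathway and glycogen, 12 of 25 members were lower and 4 higher. These counts became 7 higher and 10 lower under library-total scaling. Enzymes of the pentose phosphate pathway were among the lower ones, with TKT, transketolase, at 2844, 2110, 1777 and 2322 in parenchyma and 7436, 16750, 13364 and 12217 in far stroma (-2.42 ± 0.26, adjusted p = 3.66e-05). PGD (-1.95 ± 0.18) and TALDO1 (-1.56 ± 0.21) were lower too. The phosphorylases that break glycogen down were higher, PYGL with 3853, 4052, 4779 and 5217 in parenchyma and 1173, 972, 1230 and 1016 in far stroma and PYGB with 1287, 1637, 1751 and 2797 in parenchyma and 371, 425, 447 and 368 in far stroma, and neither overlapped between regions (log2 differences 2.02 ± 0.16 and 2.16 ± 0.20). GYG2, a glycogenin that primes new glycogen, was lower (91.2, 54.5, 90 and 78.7 in parenchyma and 627, 460, 450 and 394 in far stroma, log2 difference -2.61 ± 0.20, adjusted p = 4.11e-06), and GYS2, the glycogen synthase of liver and fat, had 0 reads in parenchyma and 14.7, 12, 15.8 and 6.45 in far stroma.

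Fatty acid oxidation had the lowest median of the metabolic lists. Of 33 genes of mitochondrial and peroxisomal oxidation, 26 were lower, 3 higher and 4 did not pass (median -1.60; 23 lower and 3 higher with library-total scaling), and they took 0.196% ± 0.00712 of the reads in parenchyma and 0.523% ± 0.0515 in far stroma. PHYH, the peroxisomal enzyme that oxidises phytanic acid, a fatty acid ruminants take up from feed, measured 288, 249, 303 and 324 in parenchyma and 3004, 2993, 7083 and 7671 in far stroma. The regions did not overlap (-4.02 ± 0.22, adjusted p = 4.47e-07). ABCD2, a peroxisomal importer of very-long-chain acyl-CoA, had 6.03, 1.63, 2.67 and 5.49 in parenchyma and 227, 139, 51.9 and 64.5 in far stroma (-4.49 ± 0.44, adjusted p = 2.00e-05). Entry into mitochondria differed by isoform: CPT1B, the muscle and brown-fat form of carnitine palmitoyltransferase, was lower (-2.90 ± 0.24), CPT1C, a form known from neurons, was higher (1.66 ± 0.29), and CPT1A did not pass (-0.43 ± 0.17, adjusted p = 0.0569). CPT1A was called lower without the heifer block, with all 3 regions in the fit and without heifer 3 (adjusted p 0.0378 to 0.978 over all alternatives). CROT, the peroxisomal carnitine octanoyltransferase, was higher (561, 752, 570 and 818 in parenchyma and 383, 392, 345 and 406 in far stroma, log2 difference 0.80 ± 0.16, adjusted p = 0.00196).

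No member of branched-chain amino acid and ketone body metabolism was higher, and 18 of 23 were lower (median -1.15; 15 lower and 1 higher with library-total scaling, and 1 higher without heifer 1). OXCT1, the enzyme that lets a tissue burn ketone bodies, measured 225, 245, 169 and 189 in parenchyma and 1627, 2419, 1159 and 1458 in far stroma. The regions did not overlap (-2.96 ± 0.16, adjusted p = 3.73e-07). BDH1, which interconverts the ketone bodies, was lower (-3.69 ± 0.50), and so was BCAT2, the mitochondrial branched-chain aminotransferase (-2.28 ± 0.24). BCAT1, the cytosolic form, did not pass (1.03 ± 0.49, adjusted p = 0.101), although it did with library-total scaling and without heifer 1.

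The list of serine, glycine and one-carbon metabolism had 6 higher, 8 lower and 13 not passing of 27 tested (median log2 difference 0.06), and with library-total scaling 12 higher and 6 lower. PHGDH and PSAT1 catalyse the opening steps of serine synthesis from a glycolytic intermediate. PSAT1 measured 392, 271, 272 and 247 in parenchyma and 45, 56.4, 40.6 and 43.5 in far stroma (2.63 ± 0.23, adjusted p = 7.71e-06) and PHGDH measured 464, 270, 400 and 554 in parenchyma and 90, 124, 147 and 140 in far stroma (1.72 ± 0.23, adjusted p = 1.47e-04). Both were higher in parenchyma in every heifer, whereas PSPH, the last step, was lower (-2.10 ± 0.39, adjusted p = 0.00142). ALDH1L1, which oxidises formyl-tetrahydrofolate in the cytosol, had 3 reads over the 4 parenchyma samples and 76.3, 203, 187 and 181 normalised counts in far stroma, a pooled ratio of 248 (95% counting interval 84.5 to 1208). Its mitochondrial paralogue ALDH1L2 measured 105, 88.6, 87.4 and 130 in parenchyma and 1250, 1278, 966 and 926 in far stroma (-3.42 ± 0.20, adjusted p = 5.82e-07). DMGDH, dimethylglycine dehydrogenase of choline breakdown, was outside the list and was among the 15 genes with the largest positive differences. It had 433, 420, 529 and 602 in parenchyma and 0 reads in every far stroma sample, at least 550-fold higher.

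Amino acid and nucleotide metabolism held smaller differences. For glutamine, arginine, proline and polyamines there were 2 higher, 12 lower and 15 not passing of 29 tested (median log2 difference -0.18), and with library-total scaling 10 higher and 8 lower. Calls of the 2 higher members did not hold under some alternatives: without the heifer as a block, without heifer 1 and without heifer 4 none was called, and without heifer 3 there was 1. PRODH, the proline dehydrogenase of mitochondria, measured 41.5, 44.7, 38.3 and 60.4 in parenchyma and 204, 675, 799 and 685 in far stroma (-3.50 ± 0.31, adjusted p = 9.51e-06). NOS3, the nitric oxide synthase of endothelium, was lower (-2.36 ± 0.18) beside the endothelial markers. Purine and pyrimidine genes had 6 higher, 7 lower and 22 not passing of 35 tested (median log2 difference -0.02), and with library-total scaling 16 higher and 6 lower. The higher ones included RRM2, the ribonucleotide reductase subunit of dividing cells (192, 154, 83.8 and 65 in parenchyma and 47, 34.8, 4.51 and 6.45 in far stroma), and CTPS1, CTP synthase (1.21 ± 0.26). RRM2 was apart between regions yet higher in heifers 1 and 3 than in 4 and 5 in both of them (2.80 ± 0.37, adjusted p = 1.38e-04). NT5E, which makes adenosine outside the cell, and ADA, which removes it, were both lower (log2 differences -1.59 ± 0.22 and -1.50 ± 0.22).

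Lipid synthesis beyond triglyceride included wide differences in sphingolipid genes. The list of phospholipid and sphingolipid synthesis had 13 higher, 12 lower and 21 not passing of 46 tested (median log2 difference 0.03). After library-total scaling the list had 21 higher and 6 lower. UGT8 makes galactosylceramide, a lipid known from myelin and from kidney and gut epithelium. It measured 250, 211, 225 and 202 in parenchyma with 0 reads in far stroma, at least 250-fold higher. DEGS2, which hydroxylates ceramide to phytoceramide, had 146, 223, 257 and 486 in parenchyma and 0.98, 1.2, 0 and 1.61 in far stroma, with 3 reads in far stroma in all giving a pooled ratio of 302 (95% counting interval 103 to 1466). Its paralogue DEGS1, the desaturase of common ceramides, was lower (-1.23 ± 0.18, adjusted p = 2.80e-04). Among ceramide synthases CERS4 was higher (1.51 ± 0.30, adjusted p = 0.00199), and CERS2 (-0.35 ± 0.16), CERS5 (-0.22 ± 0.15) and CERS6 (0.16 ± 0.44) did not pass. PEMT, which methylates phosphatidylethanolamine to phosphatidylcholine, measured 155, 46.3, 74.9 and 61.3 in parenchyma and 405, 527, 629 and 881 in far stroma (-2.93 ± 0.34, adjusted p = 6.75e-05), and CHPT1, the last step of the choline pathway, was lower (-2.23 ± 0.19).

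Fatty acid elongation, desaturation and activation had 5 higher, 17 lower and 10 not passing of 32 tested (median log2 difference -0.97), and the higher members numbered 3 without heifer 1 or heifer 4. The list held 0.13% ± 0.025 of the reads in parenchyma and 1.95% ± 0.653 in far stroma, in which FABP4, a fatty acid carrier of fat cells, took part with 439, 616, 480 and 257 in parenchyma and 57306, 49012, 85541 and 113023 in far stroma. ACSM1, a medium-chain acyl-CoA synthetase, measured 67.9, 21.9, 32.1 and 13.7 in parenchyma and 6450, 6572, 8741 and 6640 in far stroma, without overlap (-7.89 ± 0.30, adjusted p = 4.95e-08). Long-chain acyl-CoA synthetases activate fatty acids for storage or oxidation and differed by isoform. ACSL1, the main form of fat and liver, was lower (555, 533, 718 and 526 in parenchyma and 4894, 4326, 1947 and 3864 in far stroma, log2 difference -2.62 ± 0.26, adjusted p = 2.18e-05), ACSL4 (-1.01 ± 0.20) and ACSL6 (-0.92 ± 0.30) were lower, the latter not without the heifer block, without heifer 1 or 4 or with library-total scaling, and ACSL3 (1.07 ± 0.17) and ACSL5 (0.87 ± 0.15) were higher. Elongases ELOVL5 (-2.95 ± 0.32) and ELOVL6 (-3.39 ± 0.38) were lower, while ELOVL1 and ELOVL7 had differences of 0.03 ± 0.15 and 0.05 ± 0.27 that did not pass, although ELOVL1 did with library-total scaling (adjusted p = 0.0241). The desaturases also differed in direction, SCD at -5.70 ± 0.46 and SCD5 at 1.60 ± 0.25.

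The list of prostaglandin and leukotriene synthesis had 7 higher, 14 lower and 10 not passing of 31 tested (median log2 difference -0.55). ALOX15B, a lipoxygenase of epithelia, measured 348, 1102, 477 and 625 in parenchyma and 0, 1.2, 0 and 0 in far stroma. With 1 read in all of far stroma, the pooled ratio was 2138 (95% counting interval 383 to 84486). ALOX12E, an epidermal-type lipoxygenase, had 114, 254, 332 and 91.5 in parenchyma and 0.98, 0, 0 and 1.61 in far stroma, a ratio of pooled counts of 330 (95% counting interval 91.1 to 2730), and PLA2G5, a secreted phospholipase, was higher by 5.85 ± 0.44. PTGIS, prostacyclin synthase, measured 170, 67.5, 83.8 and 174 in parenchyma and 2801, 1889, 4973 and 2758 in far stroma (-4.67 ± 0.28, adjusted p = 8.10e-07). HPGD, which inactivates prostaglandins, had 18.9, 11.4, 13.4 and 27.5 in parenchyma and 774, 316, 577 and 527 in far stroma (-4.88 ± 0.26, adjusted p = 3.31e-07), and HPGDS, which makes prostaglandin D, was lower (-4.18 ± 0.60). The cyclooxygenases PTGS1 (-2.08 ± 0.21) and PTGS2 (-1.96 ± 0.31) were both lower.

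For mucin-type O-glycans and fucosyl and sialyl transfer there were 18 higher, 12 lower and 19 not passing of 49 tested (median log2 difference 0.11), and without heifer 4 the lower members numbered 7. With library-total scaling there were 23 higher and 7 lower. B4GALNT3 adds N-acetylgalactosamine to protein glycans and measured 2645, 2989, 2540 and 1968 in parenchyma and 1.96, 6, 1.13 and 3.23 in far stroma, a log2 difference of 9.41 ± 0.29 (SE; adjusted p = 1.35e-08). FUT2, the secretor fucosyltransferase, had 68.6, 128, 122 and 98.9 in parenchyma and 0.98, 0, 0 and 0 in far stroma, with 1 read in far stroma, with a pooled ratio of 347 (95% counting interval 62.1 to 13747). Starter enzymes of O-glycans differed in direction: GALNT6 (4.90 ± 0.27) and GALNT3 (2.73 ± 0.33) were higher, whereas GALNT15, with 146, 145, 102 and 280 in parenchyma and 3682, 1247, 5908 and 4413 in far stroma, and GALNT16 were lower (log2 differences -4.39 ± 0.35 and -3.67 ± 0.17). Sialyltransferase ST6GAL1 was higher (2.53 ± 0.22), and ST3GAL2 was lower (-2.05 ± 0.15).

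Glycosaminoglycan genes had 14 higher, 15 lower and 15 not passing of 44 tested (median log2 difference -0.09), turning to 20 higher and 12 lower with library-total scaling, and without heifer 3 the higher members numbered 9. The extracellular sulphatases that edit heparan sulphate were opposed. SULF1 measured 73.1, 66.7, 31.2 and 57.7 in parenchyma and 2434, 2637, 1028 and 1293 in far stroma (-4.95 ± 0.19, adjusted p = 4.37e-08). SULF2 measured 2012, 1929, 1891 and 3544 in parenchyma and 1187, 384, 510 and 339 in far stroma, higher in every heifer, most closely in heifer 1 (2.09 ± 0.33, adjusted p = 4.80e-04). HAS3, a hyaluronan synthase, was higher (474, 471, 300 and 402 in parenchyma and 71.5, 33.6, 57.6 and 88.7 in far stroma, log2 difference 2.75 ± 0.27, adjusted p = 1.99e-05). EXTL1, a glycosyltransferase related to the heparan polymerases, was lower (-4.28 ± 0.32). HS6ST2, a heparan sulphotransferase, had 27.9, 26, 29.4 and 19.2 in parenchyma and 0 reads in far stroma.

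Genes that handle peroxide and glutathione were more often lower, with 6 higher, 23 lower and 18 not passing of 47 tested (median log2 difference -0.61). The list held 0.578% ± 0.0651 of the reads in parenchyma and 1.18% ± 0.225 in far stroma. GPX3, the secreted glutathione peroxidase, measured 516, 562, 411 and 525 in parenchyma and 14220, 11394, 58083 and 25610 in far stroma, with heifer 4 highest in far stroma (-5.47 ± 0.37, adjusted p = 1.63e-06). GSTT2, a theta-class transferase, was lower (-5.67 ± 0.50), and so was CAT, catalase (-2.67 ± 0.18). The gamma-glutamyl transferases, which split glutathione at the cell surface, went the other way. GGT1 measured 1059, 865, 743 and 1068 in parenchyma and 15.7, 13.2, 9.03 and 3.23 in far stroma (6.53 ± 0.34, adjusted p = 3.07e-07), and GGT6 had 176, 154, 221 and 279 in parenchyma and 0, 0, 0 and 1.61 in far stroma, with 1 read in far stroma, with a pooled ratio of 687 (95% counting interval 123 to 27160). GSTP1, the pi-class transferase of epithelia, was also higher (3.36 ± 0.42, adjusted p = 1.07e-04).

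Aldehyde and retinal oxidoreductases had 6 higher, 16 lower and 18 not passing of 40 tested (median log2 difference -0.21), which became 10 higher and 10 lower with library-total scaling. ALDH1A2, which makes retinoic acid, measured 2.26, 1.63, 1.78 and 3.66 in parenchyma and 120, 62.4, 46.3 and 137 in far stroma (-4.70 ± 0.37, adjusted p = 4.66e-06), and ALDH1A1 measured 1476, 906, 1064 and 932 in parenchyma and 4815, 6762, 6406 and 7430 in far stroma (-2.55 ± 0.22, adjusted p = 8.11e-06), both lower in each heifer. HSD17B1 and AKR1C4, steroid-converting enzymes, were higher (log2 differences 1.73 ± 0.39 and 1.45 ± 0.30). Iron, haem and copper genes had 8 higher, 15 lower and 15 not passing of 38 tested (median log2 difference -0.25), turning to 14 higher and 9 lower with library-total scaling, with 5 higher without heifer 5. TF, transferrin, the iron carrier of plasma, measured 6.03, 8.13, 6.24 and 11 in parenchyma and 155, 952, 211 and 1085 in far stroma, low in all parenchyma samples and variable in far stroma (-5.64 ± 0.39, adjusted p = 1.97e-06). STEAP4, a metalloreductase, was higher (1.44 ± 0.27), and ATP7B, a copper pump, was higher by 1.26 ± 0.34 (adjusted p = 0.0111), a call lost without heifer 4 or heifer 5.

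The list of creatine and energy-dissipating genes was balanced, with 9 higher, 9 lower and 4 not passing of 22 tested (median log2 difference -0.19). Library-total scaling gave 10 higher and 4 lower. CIDEA, a lipid droplet protein of brown fat, measured 144, 17.9, 25.9 and 18.3 in parenchyma and 1712, 2972, 3279 and 4938 in far stroma (-6.45 ± 0.57, adjusted p = 9.16e-06), with heifer 1 standing above the other parenchyma samples. COX8B, a cytochrome oxidase subunit of brown fat and muscle, measured 3.02, 0.81, 3.57 and 1.83 in parenchyma and 114, 167, 62.1 and 289 in far stroma (-5.46 ± 0.50, adjusted p = 1.30e-05). On the other side were DIO2, the deiodinase that activates thyroid hormone, with 52, 45.5, 16.1 and 11 in parenchyma and 3.91, 0, 0 and 0 in far stroma (4.16 ± 0.53, adjusted p = 1.12e-04), TMEM26, used as a beige fat marker in mouse (3.13 ± 0.52), and SLC6A8, the creatine transporter, with 1099, 959, 979 and 792 in parenchyma and 284, 348, 319 and 297 in far stroma (1.61 ± 0.16, adjusted p = 2.30e-05). Creatine kinases also parted: the cytosolic CKB was lower (-2.86 ± 0.28), and the mitochondrial CKMT1A (2.83 ± 0.71) and CKMT2 (2.14 ± 0.52) were higher at low counts, with CKMT1A not called without heifer 4. At a minimum mean of 50, the higher members of this list numbered 3.

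**Figure D2:**
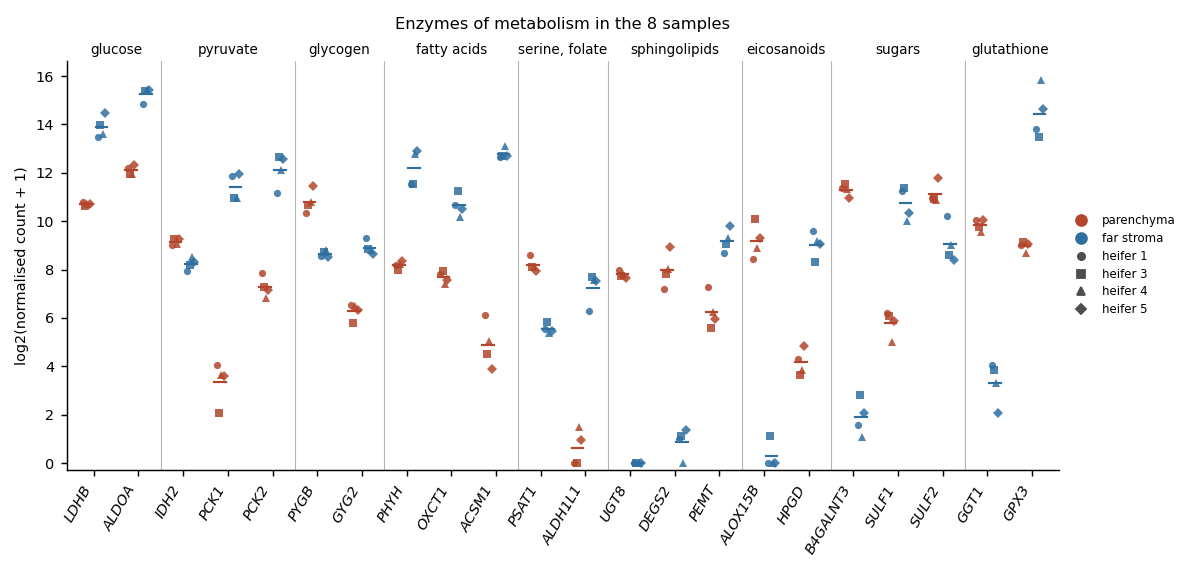
Log2(normalised count + 1) of 22 enzymes in the parenchyma (red) and far stroma (blue) of heifers 1, 3, 4 and 5 (marker shapes), with horizontal bars at the means of 4 samples. UGT8 lies at 0 in all far stroma samples, PCK1 and GPX3 lie far higher in far stroma, and SULF1 and SULF2 differ in opposite directions.

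Of 241 solute carriers, 80 were higher and 64 lower, with 97 not passing and a median of 0.06. Glucose and sugar transporters had 9 higher, 4 lower and 11 not passing of 24 tested (median log2 difference 0.41). These counts became 13 higher and 2 lower under library-total scaling. SLC5A1, the sodium-glucose cotransporter of gut and of lactating bovine mammary gland, measured 170, 125, 88.2 and 157 in parenchyma and 0.98, 0, 0 and 0 in far stroma, and its 1 read in far stroma gave a pooled ratio of 457 (95% counting interval 81.8 to 18088). SLC2A1, the insulin-independent transporter, was higher (2.39 ± 0.21, adjusted p = 8.86e-06). SLC2A4, the insulin-responsive transporter of fat and muscle, measured 55.8, 63.4, 59.7 and 77.8 in parenchyma and 333, 275, 402 and 519 in far stroma and was lower in every heifer (-2.53 ± 0.20, adjusted p = 5.24e-06).

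Organic acid transporters had 13 higher, 10 lower and 9 not passing of 32 tested (median log2 difference 0.42), and 8 higher at a minimum mean of 50. SLC13A2, a sodium-dependent importer of citrate and succinate known from kidney and intestine, measured 153, 280, 260 and 339 in parenchyma and 0.98, 0, 1.13 and 0 in far stroma, with a pooled ratio of 426 (95% counting interval 118 to 3524). SLC16A7, a high-affinity pyruvate and lactate carrier, measured 67.1, 46.3, 53.5 and 76.9 in parenchyma and 975, 1386, 679 and 1590 in far stroma (-4.18 ± 0.22, adjusted p = 3.64e-07). Beside the higher DIO2, the thyroid hormone receptor THRB was lower (-1.89 ± 0.28, adjusted p = 2.88e-04). ABC transporters had 9 higher, 10 lower and 12 not passing of 31 tested (median log2 difference -0.01), turning to 12 higher and 8 lower with library-total scaling and to 5 higher without heifer 4. ABCA3, a lipid transporter of lung surfactant, was higher by 1.75 ± 0.25, and ABCA10 was lower (-2.93 ± 0.36).

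Zinc, bicarbonate and proton transporters with carbonic anhydrases had 17 higher, 9 lower and 15 not passing of 41 tested (median log2 difference 0.32), and 5 lower without heifer 3. After library-total scaling the list had 23 higher and 5 lower. CA8, a carbonic anhydrase-like protein without catalytic activity, measured 673, 845, 657 and 1217 in parenchyma and 9.79, 10.8, 6.77 and 8.06 in far stroma (6.40 ± 0.26, adjusted p = 6.07e-08). SLC4A4, a sodium bicarbonate cotransporter, was lower (-2.61 ± 0.62, adjusted p = 0.00544), with 37.7, 21.1, 20.5 and 24.7 in parenchyma and 424, 757, 29.3 and 66.1 in far stroma. Water channels and ion pumps had 8 higher, 9 lower and 17 not passing of 34 tested (median log2 difference -0.22), turning to 13 higher and 6 lower with library-total scaling and to 5 higher at a minimum mean of 50. AQP5, the water channel of secretory glands, measured 178, 104, 76.7 and 137 in parenchyma and 10.8, 13.2, 23.7 and 3.23 in far stroma (3.37 ± 0.49, adjusted p = 2.56e-04), whereas AQP1, of endothelium, and AQP3, which also carries glycerol, were lower (log2 differences -2.33 ± 0.23 and -3.22 ± 0.44). ATP1B1, a beta chain of the sodium pump, was higher (978, 1211, 979 and 929 in parenchyma and 205, 142, 114 and 135 in far stroma, log2 difference 2.80 ± 0.19, adjusted p = 1.52e-06).

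Vesicle traffic genes were nearly balanced in number, with 20 higher, 22 lower and 25 not passing of 67 tested (median log2 difference -0.00) and 30 higher and 14 lower under library-total scaling, with wide differences in both directions. RAB25, a small GTPase of apical recycling in epithelia, measured 501, 450, 551 and 669 in parenchyma and 1.96, 0, 0 and 0 in far stroma, and 2 reads in far stroma gave a pooled ratio of 905 (95% counting interval 250 to 7474). AP1M2, the epithelial subunit of a clathrin adaptor, measured 680, 642, 644 and 703 in parenchyma and 0, 1.2, 2.26 and 4.84 in far stroma (8.04 ± 0.40, adjusted p = 2.09e-07). RAB17 (4.69 ± 0.62), SYTL1 (5.31 ± 0.48) and MYO5B (3.06 ± 0.23), all of apical or secretory transport, were higher too. RAB3B, a GTPase of regulated exocytosis, differed in the opposite direction, with 1.51, 1.63, 0 and 1.83 in parenchyma and 1008, 778, 428 and 382 in far stroma (-8.17 ± 0.35, adjusted p = 9.90e-08). All 5 caveolins and cavins, which build the caveolae abundant in fat cells and endothelium, were lower, from -2.42 ± 0.16 for CAVIN2 to -3.78 ± 0.24 for CAV1. CAV1 measured 2494, 1237, 1769 and 1323 in parenchyma and 26524, 26838, 14756 and 24257 in far stroma.

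**Figure D3:**
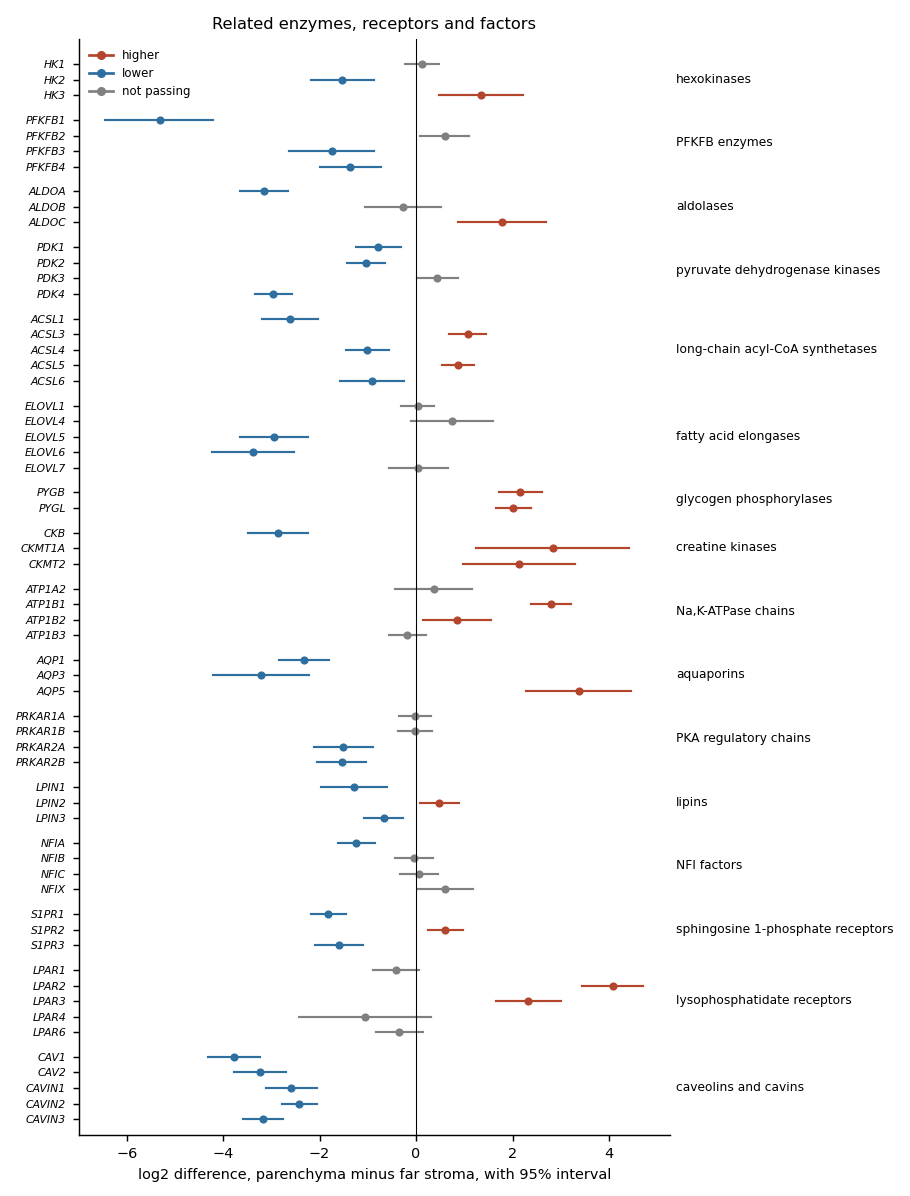
Log2 difference (parenchyma minus far stroma) with its 95% interval for members of 16 families of related genes, coloured by whether they were higher, lower or did not pass. The caveolins and cavins all lie to the left of 0, while aldolases, acyl-CoA synthetases, aquaporins and creatine kinases hold members on both sides.

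Grainyhead and OVOL factors maintain epithelial identity, and SNAI, ZEB and TWIST factors repress it in other settings. Of 19 such genes, 8 were higher and 6 lower. OVOL2 measured 239, 257, 362 and 429 in parenchyma with 0 reads in far stroma, at least 354-fold higher. GRHL2 measured 132, 150, 143 and 169 in parenchyma and 0.98, 0, 0 and 0 in far stroma, with a pooled ratio of 497 (95% counting interval 88.9 to 19646). SNAI1 measured 58.8, 102, 65.1 and 66.8 in parenchyma and 164, 163, 521 and 274 in far stroma (-1.79 ± 0.33, adjusted p = 0.00128), and the line of ZEB2 with the higher counts was lower too (-1.39 ± 0.24, adjusted p = 7.63e-04). SNAI2 had a difference of 0.19 ± 0.16 that did not pass but did with library-total scaling (adjusted p = 0.00755).

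ETS factors had 11 higher, 2 lower and 11 not passing of 24 tested (median log2 difference 0.58). With library-total scaling there were 17 higher and 1 lower. ELF5, which directs alveolar cell fate in mouse, measured 4828, 3319, 3496 and 2308 in parenchyma and 9.79, 12, 0 and 12.9 in far stroma (8.99 ± 0.57, adjusted p = 1.02e-06). EHF, an epithelial ETS factor, measured 2173, 2660, 1971 and 1483 in parenchyma and 10.8, 3.6, 3.39 and 4.84 in far stroma (8.38 ± 0.29, adjusted p = 2.64e-08), and SPDEF (7.11 ± 0.49), ELF3 (5.63 ± 0.30) and ETV4 (5.01 ± 0.39) were higher as well. The 2 lower members, ERG (318, 187, 209 and 223 in parenchyma and 693, 577, 537 and 811 in far stroma, log2 difference -1.49 ± 0.18, adjusted p = 7.31e-05) and FLI1 (-0.70 ± 0.16), are factors of endothelium, and the call of FLI1 was lost with library-total scaling. Kruppel-like and SP factors had 4 higher, 7 lower and 8 not passing of 19 tested (median log2 difference -0.09) and 7 higher and 4 lower with library-total scaling. KLF5, of proliferating epithelium, measured 409, 409, 448 and 589 in parenchyma and 138, 39.6, 104 and 90.3 in far stroma (2.42 ± 0.27, adjusted p = 5.22e-05). KLF4 measured 537, 381, 463 and 578 in parenchyma and 5254, 2721, 4914 and 3339 in far stroma (-3.01 ± 0.18, adjusted p = 7.67e-07) and KLF2, of endothelium, was lower (-2.42 ± 0.18).

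In the list of GATA, TFAP2, NFI, RUNX, EBF and PAX factors, 11 of 23 were higher and 7 lower. TFAP2C, an AP-2 factor of ectoderm and mammary luminal cells, measured 1367, 1192, 1112 and 1058 in parenchyma and 1.96, 0, 1.13 and 1.61 in far stroma (9.19 ± 0.32, adjusted p = 2.82e-08). TFAP2A measured 1252, 1312, 1629 and 1376 in parenchyma and 5.87, 1.2, 2.26 and 8.06 in far stroma (8.24 ± 0.36, adjusted p = 9.90e-08), and TFAP2B was higher by 7.57 ± 0.53. All 3 RUNX factors were higher, RUNX1 by 3.86 ± 0.43, RUNX2 by 2.39 ± 0.25 and RUNX3 by 3.80 ± 0.36. Lower members included EBF1 (-1.75 ± 0.24), an adipocyte and B cell factor, ZFPM2 (-2.10 ± 0.25) and GATA2 (-1.89 ± 0.24). Among NFI factors NFIA was lower (351, 262, 205 and 221 in parenchyma and 960, 717, 409 and 460 in far stroma, log2 difference -1.24 ± 0.17, adjusted p = 1.75e-04), and NFIB and NFIC had differences of -0.04 ± 0.18 and 0.06 ± 0.17 that did not pass, although NFIC was called with library-total scaling (adjusted p = 0.0428).

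C/EBP, circadian and E-box factors had 12 higher, 15 lower and 22 not passing of 49 tested (median log2 difference -0.22), which turned to 16 higher and 7 lower with library-total scaling, and the higher members numbered 6 without heifer 3. MLXIPL, the carbohydrate response factor that drives lipogenic genes, measured 69.4, 72.4, 80.2 and 49.4 in parenchyma and 545, 719, 604 and 808 in far stroma (-3.29 ± 0.22, adjusted p = 1.58e-06). The inhibitors ID1 (-2.60 ± 0.22), ID3 (-2.08 ± 0.23) and ID2 (-0.92 ± 0.17) were lower and ID4 was higher (1.89 ± 0.19). Of the MYC genes, MYCN (1.92 ± 0.36) and MYCL (2.58 ± 0.36) were higher. CEBPB (-1.04 ± 0.15) and CEBPD (-0.90 ± 0.27) were lower, the latter by a call lost without heifer 1, without heifer 4 and with library-total scaling.

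Nuclear receptors and cofactors had 8 higher, 9 lower and 13 not passing of 30 tested (median log2 difference 0.15), turning to 15 higher and 6 lower with library-total scaling, with 4 higher without heifer 4 and 5 without heifer 5. VDR, the vitamin D receptor, measured 817, 687, 605 and 776 in parenchyma and 69.5, 68.4, 47.4 and 54.8 in far stroma (3.57 ± 0.18, adjusted p = 2.64e-07). ESRRG, an orphan receptor of oxidative tissues, was higher at low counts (3.85 ± 0.49). HNF4A, a receptor known from liver, kidney and gut, measured 0, 0, 1.78 and 0 in parenchyma and 115, 149, 113 and 119 in far stroma, with 2 reads in parenchyma giving a pooled ratio of 295 (95% counting interval 81 to 2440) in favour of far stroma. NR4A1, an immediate early receptor, was lower (-2.45 ± 0.32), and its values in far stroma ran from 385 in heifer 5 to 2994 in heifer 1. LPIN1, a phosphatidate phosphatase and coactivator, was lower (-1.29 ± 0.30), and LPIN2 was higher by 0.48 ± 0.18 (adjusted p = 0.0413, lost without heifer 3, 4 or 5).

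Factors of NF-kappaB, IRF, STAT and SMAD signalling were higher in 22 of 42 cases and lower in 1 (median 0.52). The lower member was SMAD6, an inhibitor of BMP signalling (121, 141, 130 and 148 in parenchyma and 201, 228, 481 and 403 in far stroma, log2 difference -1.18 ± 0.24, adjusted p = 0.00208), and the lower members numbered 4 without heifer 3 and 2 without heifer 4. IRF8, of macrophages, dendritic cells and B cells, measured 725, 924, 737 and 804 in parenchyma and 145, 107, 137 and 56.5 in far stroma (2.91 ± 0.25, adjusted p = 7.77e-06). RELB (2.83 ± 0.20), IRF7 (2.52 ± 0.19) and IRF1 (2.01 ± 0.25) were higher also. Of the markers, T and B cell markers were higher in 6 of 6 cases and macrophage markers lower in 3 of 5. Innate sensing genes had 19 higher, 3 lower and 23 not passing of 45 tested (median log2 difference 0.35). Library-total scaling gave 26 higher and 1 lower. GSDMC, a gasdermin, measured 42.2, 82.9, 94.5 and 28.4 in parenchyma with 0 reads in far stroma, at least 69.3-fold higher, and NLRP1 was higher by 3.27 ± 0.39. IRAK2 and IRAK3, kinases of Toll-like receptor signalling, were lower (-1.27 ± 0.21 and -0.88 ± 0.23), the latter without a call when the heifer block was left out or with library-total scaling.

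Hippo pathway genes had 7 higher, 6 lower and 18 not passing of 31 tested (median log2 difference 0.05). These counts became 12 higher and 4 lower under library-total scaling. WWC1, an upstream activator of the pathway, measured 716, 1046, 942 and 815 in parenchyma and 27.4, 148, 55.3 and 111 in far stroma (3.60 ± 0.30, adjusted p = 6.64e-06). The YAP target genes CYR61 and CTGF were lower, CYR61 with 833, 679, 514 and 465 in parenchyma and 4213, 2499, 4111 and 1385 in far stroma and CTGF with 1301, 563, 420 and 786 in parenchyma and 4853, 2142, 3271 and 2126 in far stroma (log2 differences -2.20 ± 0.22 and -2.05 ± 0.23). YAP1 itself had a difference of 0.23 ± 0.37 and TEAD1 of -0.05 ± 0.27, neither of which passed. Of 314 zinc finger genes, 95 were higher and 15 lower, with 204 not passing, so that 35% were called against 52.4% of all genes. The higher members were near the share over all genes (27.7%), and the lower ones were below that share (24.7%). After library-total scaling the list had 187 higher and 7 lower. HOX genes had 16 of 27 lower and 1 higher, HOXA9 (0.55 ± 0.20, adjusted p = 0.0374), which was not called without the heifer block or without heifer 3, 4 or 5. Forkhead genes were higher in 12 of 24 and lower in 2, and SOX genes were higher in 9 of 13 and lower in 3. With library-total scaling 16 forkhead genes were higher and 1 lower, and without heifer 3 there was 1 lower.

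Insulin and PI3K signalling genes had 15 higher, 6 lower and 28 not passing of 49 tested (median log2 difference 0.22). With library-total scaling there were 25 higher and 3 lower. GRB7, an adaptor of ERBB and insulin receptors, measured 307, 352, 399 and 874 in parenchyma and 10.8, 24, 22.6 and 38.7 in far stroma, with heifer 5 highest (4.27 ± 0.24, adjusted p = 4.48e-07). PIK3CD, the leukocyte PI3-kinase, was higher by 2.41 ± 0.21 beside the lymphocyte markers. AKT2, the isoform of insulin action, was lower (943, 1051, 1047 and 1381 in parenchyma and 2134, 2426, 2109 and 2248 in far stroma, log2 difference -1.02 ± 0.16, adjusted p = 3.86e-04), and AKT1 had a difference of -0.11 ± 0.16 that did not pass. IRS1 was higher (0.89 ± 0.19, adjusted p = 0.00273), and IRS2 had a difference of -0.84 ± 0.34 that did not pass (adjusted p = 0.0608). IRS2 was called lower with edgeR, with DESeq2 and without heifer 5 (adjusted p 4.89e-04 to 0.301 over all alternatives).

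Genes of mTOR and AMPK signalling had 6 higher, 14 lower and 24 not passing of 44 tested (median log2 difference -0.12), which turned to 15 higher and 6 lower with library-total scaling. The lower members numbered 9, 8 and 9 without heifers 1, 3 and 4. RPS6KA6, a ribosomal S6 kinase of the ERK pathway, was higher by 3.00 ± 0.30, and DDIT4L, an inhibitor of mTOR, measured 67.1, 69.1, 53.5 and 76.9 in parenchyma and 373, 385, 398 and 366 in far stroma (-2.51 ± 0.20, adjusted p = 4.73e-06). PRKAG3, an AMPK subunit known from muscle, was lower (-2.85 ± 0.36). The catalytic genes MTOR (0.35 ± 0.17), PRKAA1 (-0.36 ± 0.17) and PRKAA2 (-0.22 ± 0.34) did not pass, but MTOR did with library-total scaling (adjusted p = 0.00445).

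Cyclic nucleotide signalling had 15 higher, 21 lower and 25 not passing of 61 tested (median log2 difference -0.08), turning to 21 higher and 17 lower with library-total scaling and to 9 higher without heifer 4. ADCY5, an adenylate cyclase, measured 30.9, 26, 35.7 and 79.7 in parenchyma and 1550, 1540, 971 and 1410 in far stroma (-5.07 ± 0.28, adjusted p = 3.88e-07). PDE3B, the phosphodiesterase through which insulin lowers cyclic AMP in fat cells, measured 70.9, 185, 58.8 and 62.2 in parenchyma and 1159, 1230, 482 and 769 in far stroma (-3.34 ± 0.23, adjusted p = 1.71e-06), and PDE1A was lower (-4.65 ± 0.27). Among regulatory chains of protein kinase A, PRKAR2A and PRKAR2B, of type II, were lower (-1.51 ± 0.28 and -1.54 ± 0.23). PRKAR1A, of type I, measured 1948, 2100, 1874 and 1952 in parenchyma and 2073, 2168, 1928 and 1843 in far stroma, nearly equal in both regions (log2 difference -0.02 ± 0.15, 95% interval -0.35 to 0.30), and became higher by 0.40 with library-total scaling, as did PRKAR1B (log2 difference as reported -0.02 ± 0.16). PDE7A, a phosphodiesterase of lymphocytes, was higher (3.53 ± 0.45).

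G protein-coupled receptors differed in both directions, with 27 higher, 26 lower and 18 not passing of 71 tested (median log2 difference -0.33). F2RL1, a protease-activated receptor of epithelia, measured 213, 115, 128 and 222 in parenchyma and 1.96, 0, 3.39 and 0 in far stroma (6.43 ± 0.48, adjusted p = 3.11e-06), and LGR6, an R-spondin receptor, measured 1159, 250, 647 and 229 in parenchyma and 3.91, 13.2, 0 and 0 in far stroma (7.30 ± 0.67, adjusted p = 1.24e-05). FFAR4, a receptor for long-chain fatty acids, had 0, 4.88, 3.57 and 0.92 in parenchyma and 356, 292, 125 and 294 in far stroma (-6.54 ± 0.55, adjusted p = 6.71e-06). PTGER3, a prostaglandin E receptor that lowers cyclic AMP, measured 8.29, 3.25, 3.57 and 8.24 in parenchyma and 475, 425, 331 and 337 in far stroma (-5.92 ± 0.31, adjusted p = 2.97e-07). ADORA1 (-5.04 ± 0.33), HCAR1, the lactate receptor (-4.28 ± 0.35), and FFAR3, a receptor for short-chain fatty acids (-4.33 ± 0.48), were lower as well. GNAI1, the inhibitory G protein subunit these receptors use, was lower, with 152, 113, 147 and 131 in parenchyma and 1910, 1618, 1228 and 1542 in far stroma (-3.52 ± 0.18, adjusted p = 2.23e-07).

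Receptors for the same lipid did not all differ alike. Among lysophosphatidate receptors LPAR2 measured 255, 311, 279 and 371 in parenchyma and 14.7, 15.6, 27.1 and 12.9 in far stroma (4.08 ± 0.28, adjusted p = 1.82e-06) and LPAR3 was higher by 2.32 ± 0.30, while LPAR1 (-0.42 ± 0.21), LPAR4 (-1.05 ± 0.61) and LPAR6 (-0.35 ± 0.22) did not pass. Of the sphingosine 1-phosphate receptors, S1PR1, of endothelium and lymphocytes, was lower (680, 722, 694 and 716 in parenchyma and 2302, 2229, 2254 and 3282 in far stroma, log2 difference -1.82 ± 0.16, adjusted p = 9.01e-06), S1PR3 was lower (-1.59 ± 0.22), and S1PR2 was higher by 0.61 ± 0.16. Prostaglandin E receptor PTGER2, which raises cyclic AMP, was higher (3.14 ± 0.64, adjusted p = 0.00239), opposite to PTGER3. G protein subunits and RGS proteins had 14 higher, 15 lower and 23 not passing of 52 tested (median log2 difference 0.00), turning to 21 higher and 9 lower with library-total scaling, and 8 were higher without heifer 3. GNAO1, known from neurons, was higher (3.63 ± 0.25).

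Tyrosine kinases had 28 higher, 15 lower and 21 not passing of 64 tested (median log2 difference 0.33). Library-total scaling gave 33 higher and 9 lower. EPHB6, an ephrin receptor without kinase activity, measured 449, 1669, 1640 and 2191 in parenchyma and 8.81, 3.6, 18.1 and 8.06 in far stroma, lowest in heifer 1 of parenchyma (7.09 ± 0.43, adjusted p = 7.74e-07). TNK1 was higher by 4.58 ± 0.28, and the T cell kinase LCK (3.59 ± 0.31) was higher beside the T cell markers. EPHA3, an ephrin receptor, was lower (8.29, 2.44, 4.46 and 2.75 in parenchyma and 207, 175, 37.2 and 40.3 in far stroma, log2 difference -4.11 ± 0.48, adjusted p = 6.03e-05), and so was TEK, the angiopoietin receptor of endothelium (-2.64 ± 0.21). RAS and MAPK genes had 17 higher, 15 lower and 31 not passing of 63 tested (median log2 difference 0.10). These counts became 31 higher and 11 lower under library-total scaling. MAPK13, the p38 delta kinase of epithelia, measured 440, 287, 282 and 415 in parenchyma and 2.94, 2.4, 1.13 and 1.61 in far stroma (6.89 ± 0.31, adjusted p = 1.14e-07). MRAS measured 244, 242, 209 and 248 in parenchyma and 3598, 4514, 4740 and 5226 in far stroma (-4.24 ± 0.16, adjusted p = 4.61e-08) and RRAS 492, 497, 521 and 656 in parenchyma and 2393, 2535, 4203 and 4851 in far stroma (-2.63 ± 0.18, adjusted p = 1.45e-06), while NRAS (0.03 ± 0.18) and BRAF (0.39 ± 0.24) did not pass, although BRAF did with library-total scaling (adjusted p = 0.0204).

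Calcium and lipid kinases were more often higher, with 20 higher, 9 lower and 27 not passing of 56 tested (median log2 difference 0.37). After library-total scaling the list had 31 higher and 4 lower. ITPR1, a calcium release channel, measured 1450, 2469, 1732 and 2403 in parenchyma and 605, 504, 166 and 269 in far stroma (2.52 ± 0.30, adjusted p = 7.45e-05), and CAMK1, a calmodulin kinase, was lower (131, 115, 122 and 123 in parenchyma and 722, 1002, 1158 and 1177 in far stroma, log2 difference -3.01 ± 0.19, adjusted p = 9.36e-07). Hedgehog and cilium genes had 12 higher, 14 lower and 19 not passing of 45 tested (median log2 difference -0.26), turning to 15 higher and 7 lower with library-total scaling, and 7 and 6 were higher without heifers 4 and 5. PTCH1, a hedgehog receptor, was higher (0.68 ± 0.23, adjusted p = 0.0295), a call lost without heifer 4 or heifer 5. BOC, a coreceptor, was higher (1531, 1341, 1628 and 1608 in parenchyma and 551, 412, 556 and 326 in far stroma, log2 difference 1.76 ± 0.18, adjusted p = 2.30e-05), and the related coreceptors CDON and GAS1 were lower (-1.41 ± 0.22 and -1.36 ± 0.20). FOXJ1, the factor of motile cilia, had 26.4, 100, 87.4 and 154 in parenchyma and 0.98, 0, 0 and 1.61 in far stroma, with a pooled ratio of 149 (95% counting interval 41.1 to 1237).

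Polarity genes had the largest share of higher members among the signalling lists, with 25 higher, 3 lower and 15 not passing of 43 tested (median log2 difference 0.64). The lower members numbered 5 without heifer 4 and 6 when all 3 regions entered the fit, and 1 at a minimum mean of 50. FAT2, an atypical cadherin that aligns basal protrusions in epithelia, measured 634, 1058, 877 and 740 in parenchyma and 1.96, 4.8, 1.13 and 0 in far stroma (8.37 ± 0.37, adjusted p = 1.04e-07). MARVELD3, of tight junctions, had 116, 121, 206 and 244 in parenchyma and 1.96, 0, 0 and 0 in far stroma, with a pooled ratio of 282 (95% counting interval 77.8 to 2331), and PARD6B (5.22 ± 0.48) and CELSR1 (4.22 ± 0.32) were higher. CDC42, the GTPase at the centre of this machinery, was lower (-0.58 ± 0.16, adjusted p = 0.0116), which did not pass with library-total scaling. RHOV, an atypical GTPase, measured 536, 809, 1000 and 765 in parenchyma and 6.85, 3.6, 10.2 and 1.61 in far stroma (7.06 ± 0.35, adjusted p = 2.26e-07), and RHOQ, implicated in glucose transporter traffic in fat cells, measured 269, 234, 193 and 179 in parenchyma and 778, 838, 612 and 785 in far stroma (-1.79 ± 0.17, adjusted p = 1.49e-05).

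**Figure D4:**
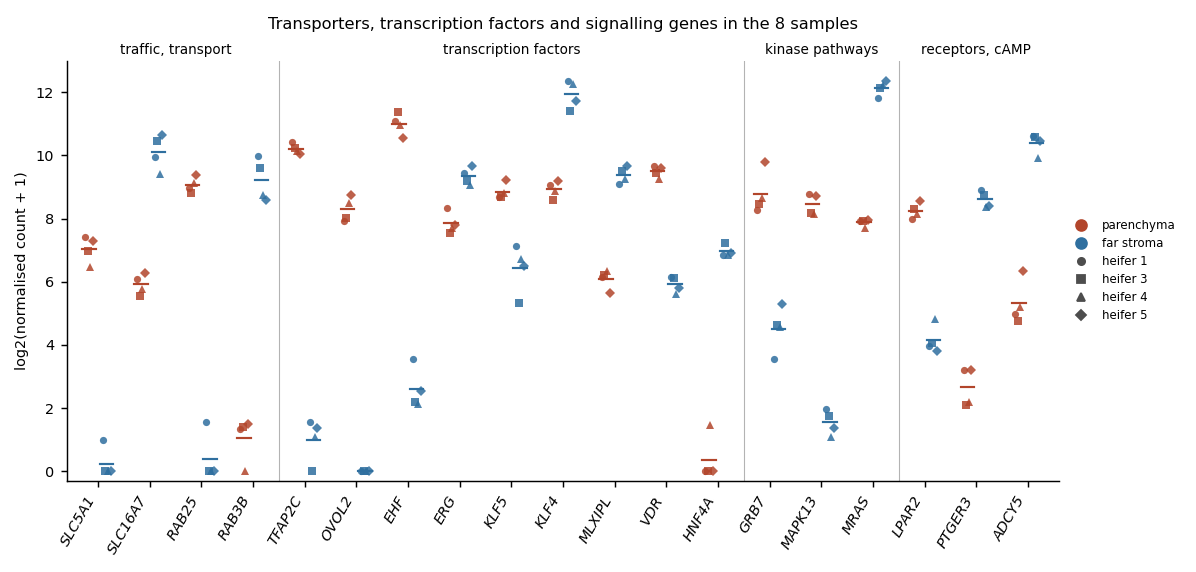
Log2(normalised count + 1) of 19 transporters, transcription factors and signalling genes in parenchyma (red) and far stroma (blue) of heifers 1, 3, 4 and 5 (marker shapes), with bars at the means. OVOL2 lies at 0 in all far stroma samples and HNF4A at 0 in 3 of 4 parenchyma samples, and KLF5 and KLF4 differ in opposite directions.

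Proteasome genes differed by little, and their balance depended on the scaling. Of 39 proteasome genes, 25 were lower and 4 higher (median -0.59), but with library-total scaling there were 6 higher and 2 lower, and without heifer 5 the lower members numbered 14. The 4 higher members were PSMB9 (1068, 847, 608 and 474 in parenchyma and 239, 125, 208 and 182 in far stroma, log2 difference 1.96 ± 0.23, adjusted p = 7.20e-05), PSMB8 (2978, 2607, 2062 and 2030 in parenchyma and 814, 573, 963 and 1074 in far stroma, log2 difference 1.52 ± 0.22, adjusted p = 2.68e-04), PSMB10 (1.17 ± 0.22) and PSME1 (1.08 ± 0.17), which are the immunoproteasome subunits and an activator that interferon induces. PSMC3, a base ATPase, was lower in each heifer (1358, 1207, 1451 and 1608 in parenchyma and 2316, 2620, 3674 and 3971 in far stroma, log2 difference -1.13 ± 0.16, adjusted p = 2.53e-04). Lysosomal genes had 7 higher, 19 lower and 24 not passing of 50 tested (median log2 difference -0.34) and 17 higher and 8 lower with library-total scaling, with CTSD, cathepsin D, at 6631, 7743, 6324 and 11180 in parenchyma and 17554, 29804, 29481 and 37062 in far stroma (-1.82 ± 0.22, adjusted p = 8.55e-05).

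Autophagy genes had 6 higher, 18 lower and 20 not passing of 44 tested (median log2 difference -0.34), turning to 14 higher and 9 lower with library-total scaling. BNIP3, a receptor for mitophagy, measured 265, 233, 220 and 419 in parenchyma and 1359, 1500, 3344 and 3169 in far stroma (-2.97 ± 0.23, adjusted p = 4.42e-06). UVRAG showed the widest difference of the list, with 258, 290, 242 and 194 in parenchyma and 31818, 69298, 34351 and 57147 in far stroma (-7.54 ± 0.22, adjusted p = 9.71e-09). In RefSeq's annotation of assembly ARS-UCD2.0, 1 of the 2 genes next to UVRAG was not analysed here. Whether strand was used in counting is not given, and reads of neighbouring genes cannot be told apart in the table, so the UVRAG value is uncertain. The list held 0.426% ± 0.0302 of the reads in parenchyma and 0.886% ± 0.141 in far stroma, and this share includes UVRAG. Without UVRAG the shares overlapped, at 0.423% ± 0.0305 in parenchyma and 0.457% ± 0.0612 in far stroma, so that nearly all of the difference in share came from that gene.

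Chromatin regulators were higher in 34 of 79 cases and lower in 4 (median 0.39). With library-total scaling there were 58 higher and 2 lower. The higher ones included UHRF1, which guides maintenance DNA methylation (204, 167, 91.8 and 44.9 in parenchyma and 33.3, 44.4, 5.64 and 14.5 in far stroma, log2 difference 2.46 ± 0.38, adjusted p = 3.91e-04), DNMT1, the maintenance methyltransferase (1.86 ± 0.16), and HMGA1, a chromatin architectural protein (1264, 1207, 1478 and 1274 in parenchyma and 158, 409, 409 and 253 in far stroma, log2 difference 2.18 ± 0.23, adjusted p = 2.80e-05). The 4 lower ones were SMARCD3, a remodeller subunit of muscle and heart (-1.91 ± 0.14), and the mitochondrial or cytosolic deacylases SIRT3 (-1.77 ± 0.21), SIRT2 (-0.74 ± 0.16) and SIRT5 (-0.64 ± 0.16), of which SIRT2 and SIRT5 were not called with library-total scaling, nor SIRT5 without the heifer block. HDAC1 measured 1055, 1228, 1131 and 1177 in parenchyma and 1104, 1008, 1276 and 1211 in far stroma, with a log2 difference of 0.00 ± 0.15 (95% interval -0.34 to 0.34).

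Counts of translation genes depended on the scaling. As reported, 46.8% of mitochondrial and 21.8% of cytosolic ribosomal proteins were called, against 52.4% of all genes. For aminoacyl-tRNA synthetases the share called was 26.1%. Mitochondrial ribosomal proteins had 36 of 77 lower and none higher (median -0.44). These counts were 2 higher and 6 lower with library-total scaling, and without heifers 3, 4 and 5 the lower members numbered 17, 15 and 17. Cytosolic ribosomal proteins had 16 of 78 higher and 1 lower as reported and 62 higher and 0 lower with library-total scaling. Without heifers 1, 3 and 5 the higher members numbered 2, 0 and 6. They took 7.16% ± 0.613 of the reads in parenchyma and 4.16% ± 0.994 in far stroma, without overlap. Translation initiation factors were called in 6 of 47 cases (2 higher and 4 lower), or 12.8%, and 9 of them had a 95% interval within ±0.5. Without heifer 1, 7 of these factors were lower, and without heifer 3 there was 1 higher. With library-total scaling the balance turned to 18 higher and 3 lower. Aminoacyl-tRNA synthetases had 4 higher, 2 lower and 17 not passing of 23 tested (median log2 difference 0.02), and without heifer 3 there were 1 higher and 1 lower, and without heifer 1 there were 2 higher. The synthetases numbered 11 higher and 1 lower with library-total scaling.

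Families sorted by symbol alone were counted in the same way. Over all genes, 27.7% were higher and 24.7% lower. Cytochrome P450 genes were lower in 10 of 19 and higher in 3, and aldehyde dehydrogenases were lower in 9 of 14 with none higher, or 1 higher with library-total scaling. Genes with PTPN or PTPR symbols, nearly all tyrosine phosphatases, were higher in 20 of 33 and lower in 7. Tripartite motif genes had 17 higher, 3 lower and 18 not passing of 38 tested (median log2 difference 0.49), and 1 was lower without heifer 1. The tripartite motif genes numbered 28 higher and 1 lower with library-total scaling. Splicing proteins of the HNRNP and SRSF families were higher in 10 of 31 with none lower, and 6 were higher without heifer 3. The 32.3% called higher were near the share over all genes (27.7%). With library-total scaling 27 of these splicing proteins were higher, and without heifer 5 there were 15. Rab GTPases had 9 higher, 22 lower and 21 not passing of 52 tested (median log2 difference -0.27), turning to 19 higher and 10 lower with library-total scaling, and 13 were lower without heifer 3.

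Equality was asked about with intervals rather than with p-values. For 871 genes, 5.99% of those tested, the 95% interval of the log2 difference lay within ±0.5, and for 5771 it lay within ±1. The former count was 264, 86, 512 and 521 without heifers 1, 3, 4 and 5. Among genes with a mean of at least 1000 in both regions, those nearest to equal were named after their values were seen. CSNK1G2, a casein kinase, measured 970, 1073, 1169 and 1187 in parenchyma and 902, 1085, 1212 and 1239 in far stroma (-0.01 ± 0.14), and FOXN3, a forkhead repressor, measured 1136, 1048, 1110 and 1230 in parenchyma and 1320, 1001, 1037 and 1195 in far stroma (-0.00 ± 0.15). VAPA, a membrane contact protein, measured 1260, 1487, 1414 and 1723 in parenchyma and 1349, 1469, 1427 and 1560 in far stroma (0.01 ± 0.15). With library-total scaling these were higher by up to 0.44.

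The 4 heifers gave the same direction for most genes. In all 4 of them, 4815 genes were higher and 4298 lower, so that 9113 of the 14546 genes had the same sign in all 4. Among called genes, 98.8 to 99.6% had the sign of the mean in a given heifer. That share is largely built in, because the calls were made from these same differences and the mean includes each heifer. Across genes, which are not independent replicates, the differences of any 2 heifers had a Spearman correlation of 0.741 to 0.852. The standard deviation of the 4 differences had a median of 0.43 over all genes on the log2 scale.

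Genes that varied most between heifers were ranked after their values were seen. LALBA, alpha-lactalbumin of milk, measured 9264, 195, 0.89 and 4.58 in parenchyma and 28.4, 3.6, 9.03 and 12.9 in far stroma, so that its difference ran from 8.30 in heifer 1 to -2.41 in heifer 4 and was not called (adjusted p = 0.176). BTN1A1, butyrophilin of the milk fat globule, measured 7391, 633, 182 and 21.1 in parenchyma and 11.7, 0, 2.26 and 1.61 in far stroma, and GLYCAM1, a milk mucin-like protein, had 1627, 87.8, 0 and 0.92 in parenchyma. In parenchyma these 3 genes were highest in heifer 1 and next in heifer 3. DLK1, a preadipocyte factor, followed another order, with 3400, 1638, 3100 and 4065 in parenchyma and 152, 939, 13.5 and 32.3 in far stroma, where the far stroma of heifer 3 stood out. SAA3, an acute phase protein of mammary epithelium, had 1004, 6333, 2554 and 2022 in parenchyma and 22.5, 30, 981 and 947 in far stroma, and its far stroma was higher in heifers 4 and 5. GSTA1, an alpha-class glutathione transferase, had 103, 0, 122 and 290 in far stroma, with 0 in heifer 3.

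**Figure D5:**
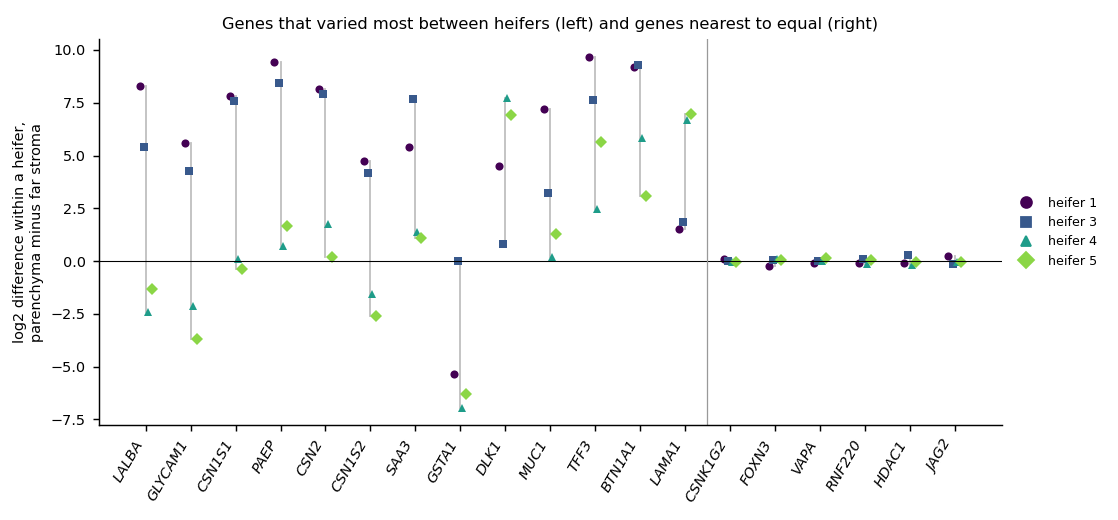
Log2 difference within each heifer for 13 genes with a large spread between heifers (left) and 6 genes nearest to equal (right). Heifers 1 and 3 lie above heifers 4 and 5 for the milk genes LALBA, GLYCAM1 and CSN1S1, while the genes on the right lie near 0 in all 4.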

How the data were processed

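Poly A selected RNA was sequenced from bulk mammary tissue of 4 heifers, per the labels' protocols. Per the submitters' processing notes, the build was ARS-UCD1.2 and the tools included DESeq2, HTSeq, STAR and cutadapt, with no versions or roles. Strand use in counting was not stated. The authors deposited a signal per gene that the file headers call normalised counts. With 1 size factor per sample, 100% of values came within 0.01 of a whole number of reads, after a further allowance for their rounding. Reads were recovered on that basis (7274474 to 11156909 per sample). These are not divided by gene length, so levels of different genes were not compared.

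The test was limma on log2(value + 1), version 3.58.1 in R 4.3.3 with a variance trend and the heifer as a block, on 8 samples and 14546 genes with a mean of at least 10 in either region, and adjusted by the Benjamini-Hochberg method. The labels number the animals, which pairs the samples. Deviations from the region means correlated at 0.298, 0.286, 0.249 and 0.176 within heifers 1, 3, 4 and 5, and at -0.269 to 0.187 between different heifers. Centring on the region means lowers the values between heifers where those within are raised, so this contrast is partly built in. The highest value between heifers also exceeded the value within heifer 5. Fits were tested on simulated data in which few genes differed. That setting is unlike these data, so the test does not bear on the choice of scaling.

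Alternatives were no block, all 3 regions in 1 fit, library-total scaling, a pseudocount of 5, a minimum mean of 50, no filter, edgeR 4.0.16 and DESeq2 1.42.0 on recovered reads, leaving out each heifer, and other interval limits. The members and gene lists were chosen with earlier results of these data known, and no p adjusted over a list is given. Library sizes limit low counts, and intervals of pooled ratios cover counting error only.

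Named genes were, per list, the 2 called genes per direction that differed most, given 1 sign in all 4 heifers and 50 or more normalised counts on average where they were higher, every tested member of 29 isozyme families, and the 15 per direction that differed most over all genes with a symbol under the same conditions. Further list members were named after their values were seen, namely ADORA1, BRAF, CAT, CELSR1, DEGS1, DIO2, DNMT1, EBF1, ELF3, ETV4, FFAR3, GALNT3, GALNT6, GAS1, GSTP1, GYS2, HCAR1, HOXA9, HPGDS, HS6ST2, ID2, ID3, ID4, IDH1, IRF1, IRF7, LCK, MTOR, MYCN, MYO5B, NRAS, PARD6B, PGD, PLA2G5, PRKAA1, PRKAA2, PSMB10, PSME1, PSPH, PTCH1, PTGER2, PTGS1, PTGS2, RAB17, RELB, RUNX1, RUNX2, RUNX3, SCD, SIRT2, SIRT5, SLC2A1, SNAI2, SPDEF, ST3GAL2, ST6GAL1, SYTL1, TALDO1, TEAD1, TFAP2B, THRB, TMEM26 and YAP1. Of the list symbols, 25 were matched through a synonym in RefSeq's gene table of assembly ARS-UCD2.0. Promoter and protein sequences were not used here. Some genes and 1 list are not reported here.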

Additional observations from a re-analysis of the deposited data

Results flagged for a closer look

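Among the named genes, 518 groups of 4 samples with a highest value of at least 10 normalised counts were searched for a sample set apart from the others, and 24 such samples were found. Chance alone marks about 1 in 20 groups, a share that the 24 found did not exceed. The highest or lowest sample was marked by its gap to the nearest sample relative to the whole range of the group. Where the values of a group lie close together, a small deviation is marked too.

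In the parenchyma of heifer 1, ALDOC (1738 normalised counts), PSAT1 (392) and CIDEA (144) were marked above the other samples of the region. In the parenchyma of heifer 3, PDE3B (185) was marked above them and CIDEC (75.6), a lipid droplet protein, below. In the parenchyma of heifer 4, ACSL1 (718) and LIPE (154), the hormone-sensitive lipase, were marked above, and MRAS (209, against 244, 242 and 248 in the others) and NFIX (1517) below. In the parenchyma of heifer 5, SULF2 (3544), GRB7 (874), CERS2 (2950) and CEBPB (1836) were marked above.

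In the far stroma of heifer 1, NT5E (790, against 727, 731 and 723 in the others) was marked above and ALDOA (29249) below. In the far stroma of heifer 3, ACACA (9779), acetyl-CoA carboxylase, was marked above. In the far stroma of heifer 4, ACSM1 (8741), CTSK (7011), PFKP (2694), ENO2 (28.2) and ELOVL1 (907) were marked above and CDC42 (2986) below. In the far stroma of heifer 5, S1PR1 (3282) was marked above and PLCB2 (17.7) below.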

How the results depend on the processing

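Library-total scaling changed the counts most, to 6550 genes higher and 2174 lower in parenchyma, against 4028 and 3589 as reported. Members of the 48 lists numbered 817 higher and 397 lower with it, against 550 and 602. PRKAR1A and PRKAR1B, which were nearly equal between the regions, became higher by a log2 difference of 0.40 each (adjusted p = 0.0369 and 0.0471 by limma). That scaling raises every difference by construction, and the data hold no control that sets the true scale. Without the heifer as a replicate block, 3672 genes were higher and 3395 lower, list members numbered 504 and 581, and the block changed no count of genes over the whole table by more than 1.5 times. Where it changed the call of a named gene, that stands beside the gene. Leaving out 1 heifer gave 3339 to 3750 higher and 2933 to 3310 lower genes. The count of genes with a 95% interval within ±0.5 was 871, fell to between 86 and 521 with 1 heifer left out and rose to 5771 with limits of ±1. Recovered reads gave 3978 higher and 3602 lower genes with edgeR and 3894 and 3583 with DESeq2. Of 292 named genes, 258 kept their direction and their side of the threshold under all 12 alternatives. That share is largely built in, because many of these genes were named for being called, differing most and having the same sign in every heifer. It therefore does not speak for the other genes or for the list counts. With library-total scaling, 74 counts over gene lists and families moved by more than 1.5 times and 74 did not. Depth limits genes with few reads in 1 region, whose ratios have wide counting intervals.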
